A study of Homo sapiens with 6 samples.

Results

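Antisense noncoding RNAs are transcripts made from the strand opposite another gene. The 359 analysed here were the rows of the deposited count table that carry the gene type antisense and that averaged at least 1 RPM over all 6 libraries (reads per 1000000 reads assigned to genes in the library). They were chosen from 2696 antisense rows in a table of 26389 genes, and the values that chose them were the mean levels, so levels are given as a description and only the comparison of the groups was tested. All 359 passed the filter on low counts and had a deposited FPKM value (fragments per kilobase of gene length, scaled to library size).

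All libraries came from HepG2, a line of cultured human cells that was derived from a hepatocellular carcinoma. In the shTCTP group (n = 3) the cells had been transfected, with a lipid reagent, with a plasmid for a short hairpin RNA against TCTP, the translationally controlled tumour protein encoded by TPT1. In the shCtrl group (n = 3) they had been transfected with a control plasmid in the same way. Libraries were directional and held polyadenylated RNA. The series title places TCTP in hepatic metabolism and insulin resistance.

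Many antisense RNAs start beside the promoter of a protein-coding gene, from which they run in the opposite direction. Others lie inside the gene or meet its end, and a few have been found to alter the transcription, splicing or stability of the gene opposite. Several are spliced hosts of small nucleolar RNAs, which are cut from their introns. A symbol that ends in -AS1 or -AS2 names the gene on the other strand.

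The sequences below come from loci at which the antisense RNA, the gene opposite or the gene at the next start site had an adjusted p under 0.05 between the groups, and from that of TPT1, where none had. The first 2 are the opening bases of the antisense RNAs that rose most, AP000692.10 (chr21:36320471-36320670, minus strand) and RP11-874J12.4 (chr18:3653410-3653609, plus strand), from the GENCODE 29 transcripts on GRCh38.
AP000692.10: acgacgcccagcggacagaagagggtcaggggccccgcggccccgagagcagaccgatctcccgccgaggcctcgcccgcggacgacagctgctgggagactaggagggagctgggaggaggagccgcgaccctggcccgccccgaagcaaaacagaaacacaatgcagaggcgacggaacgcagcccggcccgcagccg
RP11-874J12.4: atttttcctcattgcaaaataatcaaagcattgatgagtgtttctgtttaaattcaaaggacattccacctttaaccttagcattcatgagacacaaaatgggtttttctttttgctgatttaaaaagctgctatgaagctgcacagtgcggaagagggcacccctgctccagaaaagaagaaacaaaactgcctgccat
The next is a stretch of 30 bases at the start of RP11-290D2.6 (chr13:45340039-45340068, plus strand, GENCODE 29 on GRCh38), shown because all of it lies opposite an exon of TPT1, the gene that the hairpin targeted.
RP11-290D2.6: aaacttgtttcctgcaggtgatggttcatg

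The promoter windows below are from RefSeq (GRCh38.p14), each with 250 bases before and 50 after a gene's start. Capitals in the window of SLCO4A1-AS1 (chr20:62666572-62666871, minus strand), the antisense RNA that fell, mark the E-box CACGTG, which lies 126 bases before the start. In the windows of MORC3 (chr21:36319947-36320246, plus strand), RASSF1 (chr3:50337401-50337700, minus strand) and ZC3H12A (chr1:37474330-37474629, plus strand), capitals mark the bases that also lie in an exon of the antisense RNA at that locus. All 300 bases of the MORC3 window lie in the single exon of AP000692.10, 190 of those of RASSF1 lie in RASSF1-AS1 and 82 of those of ZC3H12A lie in LINC01137. In the window of SLC25A25 (chr9:128098257-128098556, plus strand) capitals mark the cyclic AMP response element TGACGTCA, which begins 200 bases before the start.
SLCO4A1-AS1: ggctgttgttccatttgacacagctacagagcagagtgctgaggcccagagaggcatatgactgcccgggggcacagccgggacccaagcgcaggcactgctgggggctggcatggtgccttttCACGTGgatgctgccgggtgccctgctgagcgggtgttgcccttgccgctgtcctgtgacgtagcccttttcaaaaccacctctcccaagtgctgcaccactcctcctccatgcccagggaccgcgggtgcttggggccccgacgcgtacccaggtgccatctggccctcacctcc
MORC3: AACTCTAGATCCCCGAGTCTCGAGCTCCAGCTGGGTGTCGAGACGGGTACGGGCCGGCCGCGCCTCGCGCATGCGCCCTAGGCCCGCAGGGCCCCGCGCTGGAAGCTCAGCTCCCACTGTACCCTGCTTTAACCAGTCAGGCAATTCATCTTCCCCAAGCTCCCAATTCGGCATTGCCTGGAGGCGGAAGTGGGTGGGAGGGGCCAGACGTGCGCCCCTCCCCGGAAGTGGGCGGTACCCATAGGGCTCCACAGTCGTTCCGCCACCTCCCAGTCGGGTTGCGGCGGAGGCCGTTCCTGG
RASSF1: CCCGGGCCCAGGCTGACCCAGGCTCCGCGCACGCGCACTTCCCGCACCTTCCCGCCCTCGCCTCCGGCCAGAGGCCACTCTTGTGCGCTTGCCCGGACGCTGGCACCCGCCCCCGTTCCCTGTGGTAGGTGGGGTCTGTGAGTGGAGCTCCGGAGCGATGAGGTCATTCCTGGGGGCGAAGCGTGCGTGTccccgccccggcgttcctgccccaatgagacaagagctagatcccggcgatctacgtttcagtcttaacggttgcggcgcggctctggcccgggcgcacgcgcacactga
ZC3H12A: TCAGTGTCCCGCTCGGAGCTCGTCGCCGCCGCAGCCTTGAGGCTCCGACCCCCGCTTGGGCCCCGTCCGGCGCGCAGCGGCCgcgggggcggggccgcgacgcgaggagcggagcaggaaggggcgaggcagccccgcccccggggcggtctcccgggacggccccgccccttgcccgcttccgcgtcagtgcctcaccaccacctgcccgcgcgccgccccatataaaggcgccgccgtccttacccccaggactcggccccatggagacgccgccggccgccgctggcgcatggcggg
SLC25A25: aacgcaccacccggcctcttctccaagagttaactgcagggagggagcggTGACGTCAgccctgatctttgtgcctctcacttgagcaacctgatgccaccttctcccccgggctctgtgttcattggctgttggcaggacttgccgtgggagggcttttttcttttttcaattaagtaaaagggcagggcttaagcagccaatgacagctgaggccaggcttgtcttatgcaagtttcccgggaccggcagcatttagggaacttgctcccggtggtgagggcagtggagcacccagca
The letters TGANTCA (AP-1), TGACGTCA, CACGTG and TATAAA were searched on both strands. They occurred in 7.76%, 1.98%, 7.43% and 11.9% of all 27305 windows. TATAAA also lies 27 bases before the start of ZC3H12A, and TGACGTCA 51 bases before that of EPHA2, a gene described further on. Of the 359 antisense RNAs, 108 had a window. Among these, 6 held TGANTCA, 1 held TGACGTCA, 11 held CACGTG and 5 held TATAAA. A match is a description of letters in a window and shows no binding.

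Read depth was similar between libraries, with 25427614 to 30486409 reads assigned to genes. Library shTCTP 3 had the fewest reads. Its log2 CPM values correlated less with those of other libraries (mean r of 0.973) than was found for any other library (0.984 to 0.985), and values without it are given beside the results that it moved most. All 10 hepatocyte markers were found, with a summed level of 5408 to 6336 FPKM in shTCTP libraries and 6591 to 7101 FPKM in shCtrl libraries. These sums did not overlap between the groups, and their part in the results was not tested. The 3 endothelial markers summed to at most 0.09 FPKM, the 4 fibroblast markers to 1.87 to 3 FPKM and the 2 leukocyte markers in the table to 2.54 to 3.56 FPKM, nearly all of it CD14. The labels do not state whether replicate libraries stem from separate cultures. The p-values therefore reflect the spread among these particular samples, and that spread could be technical.

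The targeted gene was checked first. TPT1 stood at 2032, 1806 and 1559 CPM (counts per 1000000 after scaling by TMM factors) in shTCTP libraries and at 2575, 2249 and 2290 CPM in shCtrl libraries. The groups did not overlap. The log2 fold change was -0.40 (SE 0.17), with an adjusted p of 0.396 in the edgeR quasi-likelihood test, which does not pass the threshold of 0.05 over all genes. By exact permutation (two-sided) p was 0.1, and no smaller value is possible with 3 libraries against 3. TPT1-AS1, the antisense RNA whose start lies 25 bases from that of TPT1, stood at 7.33, 7.47 and 8.88 CPM in shTCTP libraries and at 6.99, 7.46 and 6.96 CPM in shCtrl libraries. Its groups overlapped, and its log2 fold change of 0.15 (standard error 0.17, edgeR adjusted p = 0.820) did not pass the threshold.

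Most of the antisense RNAs were scarce. Their median was 2.66 RPM, 133 of them lay between 1 and 2 and 45 reached 10 RPM. ZFAS1 and RP4-614O4.11 were the only 2 above 100 RPM. ZFAS1, a host of small nucleolar RNAs, held 16.8% of all reads of the 359, and the 10 most abundant held 37.8%. Per gene length the order differed, since RP4-614O4.11 led with 326 FPKM over the 6 libraries, followed by ZFAS1 with 175, CTD-2035E11.3 with 25.5 and RP11-713M15.2 with 24.5.

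Near the limit of 1 RPM, the 5 RNAs just inside were CTB-58E17.3 and IDH1-AS1 at 1.04, ZNF337-AS1 at 1.02, RP11-276H7.2 at 1.01 and TIPARP-AS1 at 1.003. The 5 just outside were CCNT2-AS1 at 0.999, ZNF436-AS1 at 0.994, AC129492.6 at 0.988, HNF4A-AS1 at 0.982 and TM4SF1-AS1 at 0.977. A mean below 1 RPM in 1 of the groups was found for 20 RNAs, which passed the limit through the group where they were higher and so had to differ in that direction. In the shTCTP mean 4 were below 1, among them the row with the symbol PAGR1, and in the shCtrl mean 16 were, among them AP000692.10, AC144449.1, RP11-548H3.1, LINC01564, RP1-102K2.8 and RP11-276H7.2, whose values are given further on. The other 339 RNAs reached 1 RPM in both means.

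Of the 359, 357 were found by identifier in GENCODE 29. That annotation still lists 334 of them as antisense and 7 as protein-coding, among them RP4-614O4.11 under the name AL121753.1. A protein-coding gene had a start site within 1000 bases on the other strand for 197 RNAs. Exons on opposite strands overlapped for 262 RNAs, and 87 overlapped no exon of another gene. Strand use in counting is not given in the sources used here, so for overlapping genes reads from the antisense RNA and from the gene opposite cannot be told apart.

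The comparison of shTCTP with shCtrl cells asked which antisense RNAs differed after the knockdown. AP000692.10 and RP11-874J12.4 rose and SLCO4A1-AS1 fell, each by more than 2-fold and each at a low level. No abundant antisense RNA passed the threshold. Of the 359, 3 (0.836%) had an adjusted p under 0.05 in the edgeR quasi-likelihood test, against 1.41% of all 14197 genes tested. The 2 that rose were 0.557% of the 359, against 1.26% of all genes, and the 1 that fell was 0.279%, against 0.148%. One of the 2 that rose, AP000692.10, reached the limit of 1 RPM through the shTCTP libraries alone (2.45 RPM in shTCTP and 0.862 RPM in shCtrl on average), so its rise is not independent of the rule that chose the members. Of the 339 RNAs that reached the limit in both groups, 1 rose and 1 fell. DESeq2 on the same counts called the same 3 RNAs of the 359, and 314 (2.21%) of all 14197 genes.

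Looser counts lay near the background as well. An unadjusted p under 0.05 was found for 38 of the 359 (10.6%), against 11.1% of all genes, with 22 higher against a background of 6.8% and 16 lower against one of 4.27%. Of the 339 that reached 1 RPM in both groups, 31 (9.14%) had such a p, with 17 higher and 14 lower. The CPM values of the groups did not overlap for 30 RNAs that were higher in shTCTP and 21 that were lower, together 14.2% of the 359, against 17.1% of all genes, 9.83% being higher and 7.3% lower. Among the 339, whose direction the rule did not fix, 27 were apart and higher and 19 apart and lower, together 13.6%. The median log2 fold change was -0.01 over the 359 and -0.00 over all genes, with 175 of the 359 positive and 184 negative. Over the 339 the median was -0.02, with 159 positive and 180 negative. Scaling by library totals alone moves the median of all genes to 0.11 and that of the antisense RNAs to 0.09, so changes are read relative to that shift.

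The precision of the fold changes differed with the level. The 95% confidence interval lay within a 2-fold change in either direction for 296 of the 359 (82.5%), and within a 1.5-fold change for 96. Among the 45 RNAs with at least 10 RPM, 35 intervals lay within 1.5-fold, and among the 133 between 1 and 2 RPM, only 1 did. Smaller changes of most scarce RNAs could therefore not be detected in these 6 libraries. What depth, the spread between libraries and their number each add to the width was not tested.

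**Figure D1:**
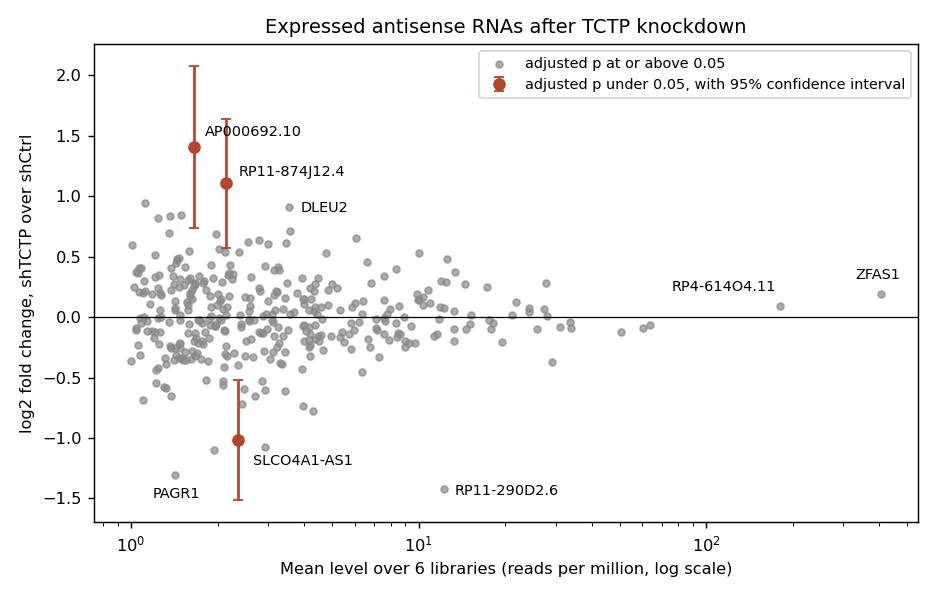
Log2 fold change (shTCTP over shCtrl) of the 359 antisense RNAs against their mean level over 6 libraries in RPM, on a log axis. The 3 RNAs with an adjusted p under 0.05 are in red with 95% confidence intervals, and all 3 lie between 1 and 3 RPM, while ZFAS1 at the right lies near 0.

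AP000692.10 (ENSG00000273199.1, GRCh38 chr21:36319792-36320670, minus strand, AP000692.2 in GENCODE 29) is a single exon of 879 bases over the promoter of MORC3, whose product is a nuclear ATPase. It had 64, 92 and 55 reads in shTCTP libraries and 22, 37 and 19 reads in shCtrl libraries. Every shTCTP library lay above every shCtrl library. In CPM it averaged 2.38 ± 0.64 in shTCTP and 0.896 ± 0.336 in shCtrl (SD, n = 3 each), the log2 fold change being 1.41 (standard error 0.32, edgeR adjusted p = 0.0364). The call was lost without shTCTP 2 (edgeR adjusted p = 0.190), without shCtrl 1 (0.208) and without shCtrl 3 (0.181), with log2 fold changes of 1.16, 1.27 and 1.25.

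MORC3, which starts inside that exon on the other strand, was about as scarce. It had 40, 28 and 72 reads in shTCTP libraries and 46, 40 and 25 reads in shCtrl libraries. The groups overlapped, with shTCTP 3 the highest of the 6 libraries. Its log2 fold change was 0.32 (SE 0.35, edgeR adjusted p = 0.804), and -0.12 without shTCTP 3. The starts lie 481 bases apart and 115 bases of exon are shared on opposite strands. The log2 ratio of AP000692.10 to MORC3 was 1.18 higher in shTCTP than in shCtrl libraries, with an exact two-sided permutation p of 0.2 (Benjamini-Hochberg 0.2 over 5 pairs chosen after their values were seen), and 0.66 higher without shTCTP 2.

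RP11-874J12.4 (ENSG00000266401.1, chr18:3653410-3656282, plus strand, AP002478.1 in GENCODE 29) is a spliced RNA of 3 exons and 1455 bases inside DLGAP1, a gene for a scaffold protein of synapses. It had 82, 102 and 72 reads in shTCTP libraries and 45, 34 and 38 reads in shCtrl libraries. The groups did not overlap. It averaged 2.89 ± 0.50 CPM in shTCTP and 1.34 ± 0.15 CPM in shCtrl (SD, n = 3 each), the log2 fold change being 1.11 (standard error 0.25, edgeR adjusted p = 0.0379). DLGAP1 itself had 1 read over the 6 libraries. The call was lost without any single library other than shTCTP 3, with edgeR adjusted p-values of 0.0745 and 0.186 without shTCTP 1 and 2, and of 0.130, 0.245 and 0.147 without shCtrl 1, 2 and 3.

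SLCO4A1-AS1 (ENSG00000232803.1, chr20:62663019-62666724, minus strand) lies within SLCO4A1, which encodes a transporter of organic anions, and shares 346 of its 1534 exon bases with it. It had 48, 50 and 42 reads in shTCTP libraries and 87, 103 and 89 reads in shCtrl libraries. All 3 shTCTP libraries lay well below all 3 shCtrl libraries. The means were 1.58 ± 0.14 CPM in shTCTP and 3.21 ± 0.36 CPM in shCtrl (SD, n = 3 each), the log2 fold change being -1.02 (standard error 0.24, edgeR adjusted p = 0.0410). The call was lost without any single library other than shTCTP 3, with edgeR adjusted p-values of 0.0873 and 0.122 without shTCTP 1 and 2, and of 0.105, 0.269 and 0.150 without shCtrl 1, 2 and 3. It was also lost with scaling by library totals alone (edgeR adjusted p = 0.122).

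SLCO4A1 was far more abundant than its antisense RNA, at 17.9 FPKM against 1.59 FPKM over the 6 libraries. It stood at 44.4, 46.6 and 51.9 CPM in shTCTP libraries and at 49.3, 55.4 and 64.1 CPM in shCtrl libraries. The groups overlapped, and its log2 fold change of -0.24 (standard error 0.14, edgeR adjusted p = 0.547) did not pass the threshold. The log2 ratio of SLCO4A1-AS1 to SLCO4A1 was 0.78 lower in shTCTP than in shCtrl libraries, a difference with an exact two-sided permutation p of 0.1, the smallest possible. The pair was tested because SLCO4A1-AS1 had passed the threshold in the same libraries, so this ratio is not independent of that call.

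**Figure D2:**
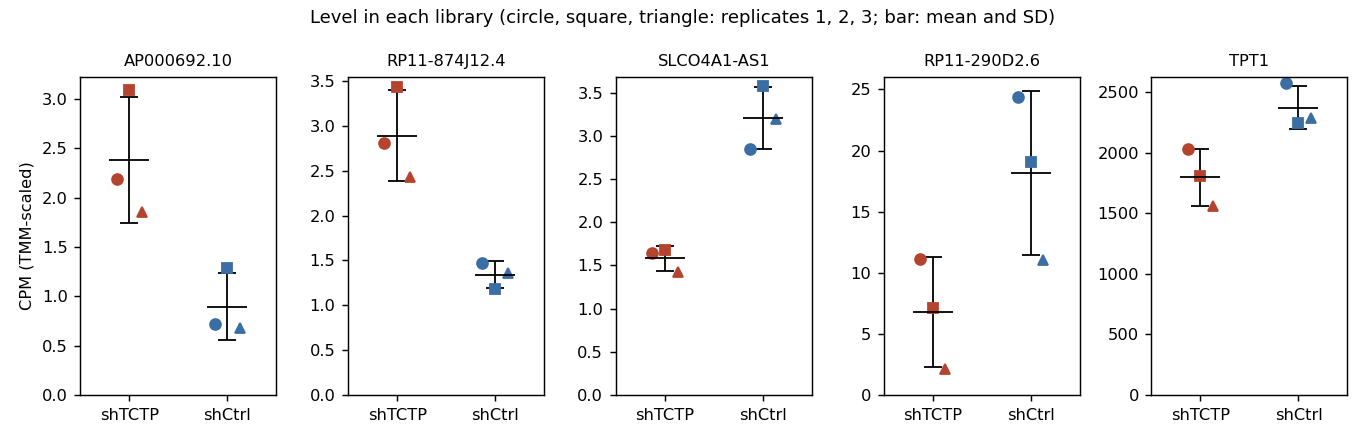
TMM-scaled CPM in each library for the 3 antisense RNAs past the threshold, for RP11-290D2.6 and for TPT1, with shTCTP left of shCtrl and bars for the mean and SD of 3 libraries. The groups are apart for the first 3 RNAs and for TPT1, and overlap for RP11-290D2.6.

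RP11-290D2.6 (ENSG00000273149.1, chr13:45340039-45341183, plus strand, AL138963.3 in GENCODE 29) had the most negative fold change of the 359. All of its 588 exon bases lie opposite exons of TPT1. It had 324, 212 and 63 reads in shTCTP libraries and 743, 550 and 308 reads in shCtrl libraries. The highest shTCTP library reached the level of the lowest shCtrl library, at 11.1 CPM each, and the spread within each group was wide. The log2 fold change was -1.42 (SE 0.43), which did not pass the threshold (edgeR adjusted p = 0.183), and -0.98 without shTCTP 3 (edgeR adjusted p = 0.0859).

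Relative to the CPM of TPT1, RP11-290D2.6 stood at 0.546%, 0.395% and 0.136% in shTCTP libraries and at 0.946%, 0.848% and 0.483% in shCtrl libraries. These shares overlap between the groups, and their log2 values differed by -1.24 with an exact two-sided permutation p of 0.2. Without shTCTP 3 the difference was -0.65. Of the 6 antisense RNAs with at least 90% of their exon bases opposite exons of 1 gene, 4 lay under 1% of the level of an abundant gene. They were RP11-290D2.6 at 0.598% of TPT1, RP5-940J5.9 at 0.0870% of GAPDH, RP11-982M15.2 at 0.579% of AKT1 and RP11-378A13.2 at 0.716% of CTDSP1. The other two, which lie opposite SIRT5 and EXTL2, stood at 26.8% and 34.7% of those genes. None of the 6 passed the threshold. What reads of the gene opposite add to these counts was not tested.

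The next largest falls among RNAs with an unadjusted p under 0.05 did not pass the threshold either. The row with the symbol PAGR1 (ENSG00000238045.9), which GENCODE 29 lists as AC009133.1 and which shares exon bases with the zinc finger gene MAZ, had 25, 33 and 15 reads in shTCTP libraries and 101, 43 and 36 reads in shCtrl libraries. The groups did not overlap, and shCtrl 1 lay far above the rest (log2 fold change -1.30, edgeR adjusted p = 0.137). This row reached 1 RPM through the shCtrl libraries alone, so its direction was fixed by the rule that chose the members. RP11-386G11.10, opposite the tubulin gene TUBA1B, was likewise highest in shCtrl 1, with 68, 63 and 37 reads in shTCTP libraries and 208, 83 and 63 reads in shCtrl libraries (log2 fold change -1.07, edgeR adjusted p = 0.207). It had 80.2% of its exon bases opposite TUBA1B and stood at 0.167% of that gene's level. The PAGR1 row had 38.0% opposite MAZ and stood at 0.267% of its level. What reads of these abundant genes add to both counts was not tested.

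RP11-867G23.8, which starts 258 bases from B4GAT1, a glycosyltransferase gene, had a log2 fold change of -0.78 (edgeR adjusted p = 0.123). RP11-660L16.2 lies within DHCR7, the gene for the last enzyme of cholesterol synthesis, and had one of -0.73 (edgeR adjusted p = 0.405), which was -0.36 without shTCTP 3. AC007319.1 lies opposite TFPI, the gene for an inhibitor of blood coagulation, and had one of -0.72 (edgeR adjusted p = 0.206). SCARNA9, named after a small RNA of Cajal bodies and chosen here after its values were seen, completed the 7 RNAs past a 2-fold difference, with 74, 36 and 2 reads in shTCTP libraries and 90, 73 and 75 reads in shCtrl libraries. Its low value came from shTCTP 3, and its unadjusted p in the edgeR test was 0.0667. Its log2 fold change was -1.10 with all libraries and -0.53 without shTCTP 3.

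On the positive side, DLEU2, a host of microRNAs from a region often deleted in chronic lymphocytic leukaemia, stood at 3.25, 3.87 and 6.38 CPM in shTCTP libraries and at 2.10, 2.26 and 2.84 CPM in shCtrl libraries. The groups did not overlap and shTCTP 3 was the highest, yet the log2 fold change of 0.91 (standard error 0.26, edgeR adjusted p = 0.121) missed the threshold. Without shTCTP 1 it passed, with a log2 fold change of 1.10 and an edgeR adjusted p of 0.0481, and without shTCTP 3 the log2 fold change was 0.58 (edgeR adjusted p = 0.245). AC144449.1, beside the start of MMADHC, a gene of cobalamin metabolism, had a log2 fold change of 0.94 (edgeR adjusted p = 0.184). AC009506.1, opposite the bromodomain gene BAZ2B, had 0.84, RP11-548H3.1, opposite the phospholipase gene PLCD4, had 0.83 and LINC01564 had 0.82. TMEM44-AS1 had 0.71, while TMEM44 had -0.18, and neither passed. AC144449.1, RP11-548H3.1 and LINC01564 reached 1 RPM through the shTCTP libraries alone, so their direction was fixed by the rule that chose the members.

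The 6 most abundant antisense RNAs had log2 fold changes between -0.12 and 0.19, and none passed the threshold. ZFAS1 stood at 537, 472 and 297 CPM in shTCTP libraries and at 357, 405 and 381 CPM in shCtrl libraries. It was highest in shTCTP 1 and 2 and lowest in shTCTP 3, so that its log2 fold change of 0.19 (standard error 0.18, edgeR adjusted p = 0.763) spans libraries on both sides of the shCtrl range. Without shTCTP 3 it was 0.41 (edgeR adjusted p = 0.224). ZNFX1, which starts 248 bases away in the other direction, stood at 18.6, 17.9 and 24.5 CPM in shTCTP libraries and at 17.2, 14.8 and 16.4 CPM in shCtrl libraries. Its order was the other way round, with shTCTP 3 the highest, and its log2 fold change of 0.34 (edgeR adjusted p = 0.449) did not pass and was 0.19 without shTCTP 3.

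RP4-614O4.11 averaged 186 ± 8.98 CPM in shTCTP and 174 ± 28.5 CPM in shCtrl (SD, n = 3 each). SNHG7, another snoRNA host, averaged 62.4 ± 9.30 CPM in shTCTP and 65.2 ± 4.45 CPM in shCtrl (SD, n = 3 each). PINK1-AS, opposite the mitochondrial kinase gene PINK1, averaged 58.6 ± 9.40 CPM in shTCTP and 62.2 ± 3.92 CPM in shCtrl (SD, n = 3 each). HAGLR, from the HOXD cluster, averaged 48.3 and 52.6 CPM in the shTCTP and shCtrl groups, and RP11-400F19.6, opposite the steroid dehydrogenase gene HSD17B1, 33.0 and 35.2 CPM. In each of these 5 RNAs the groups overlapped, and the 95% confidence intervals of SNHG7 (-0.35 to 0.23) and PINK1-AS (-0.38 to 0.21) leave room for no change past 1.5-fold.

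Library shTCTP 3 decided 3 further values. SNHG12, a snoRNA host, had 415, 392 and 246 reads in shTCTP libraries and 261, 235 and 221 reads in shCtrl libraries, and CTD-2035E11.3 had 524, 526 and 255 reads in shTCTP libraries and 286, 321 and 313 reads in shCtrl libraries. In both, shTCTP 1 and 2 lay above every shCtrl library and shTCTP 3 lay near or below them. Their log2 fold changes of 0.53 and 0.48 missed the threshold with all libraries (edgeR adjusted p = 0.265 and 0.447), and without shTCTP 3 they were 0.75 and 0.76 (edgeR adjusted p = 0.00438 and 0.00236). In that comparison without shTCTP 3, 5 antisense RNAs were higher and 2 lower in place of 2 and 1, and ST20-AS1 (0.65 with all libraries) was among those called. Over all genes the calls rose too, to 343 of 14440 (2.375%, 300 higher and 43 lower) from 200 of 14197 (1.41%). SNHG12, CTD-2035E11.3 and ST20-AS1 were chosen after their values were seen.

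The 359 together took 0.246%, 0.262% and 0.252% of reads in shTCTP libraries and 0.232%, 0.234% and 0.226% in shCtrl libraries. Every shTCTP library lay above every shCtrl library in these unscaled shares. TMM factors, which were 1.17 for shTCTP 3 and 0.919 to 1.02 for shCtrl libraries, were not applied, and a larger factor lowers the scaled level. Of the 359, 16 passed the limit of 1 RPM through the shTCTP libraries alone and 4 through the shCtrl libraries alone. The separation is therefore given only for unscaled reads of RNAs chosen in this way, and no test was made of this sum. ZFAS1 supplied 515, 471 and 346 RPM to this sum in shTCTP libraries and 364, 387 and 350 in shCtrl libraries. Without ZFAS1 the sum was 1947, 2151 and 2174 RPM in shTCTP libraries and 1956, 1956 and 1913 in shCtrl libraries, so the groups then overlapped. In bulk samples fewer cells with an RNA and less RNA per cell cannot be told apart.

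Beside other classes of RNA at the same minimum level, long intergenic noncoding RNAs (lincRNAs) had 9 of 274 called, all 9 higher (3.28%), and protein-coding genes had 163 of 11111 called (1.47%). The classes differ in level, so shares are also given by level. Between 1 and 2 RPM, 1 of 133 antisense RNAs, 0 of 97 lincRNAs and 13 of 926 coding genes were called. Between 2 and 10 the counts were 2 of 181, 4 of 144 and 42 of 3292, and at 10 or more 0 of 45, 5 of 33 and 108 of 6893. Of the 45 antisense RNAs at 10 RPM or more, none passed the threshold and 5 had an unadjusted p under 0.05 in the edgeR test. The difference between the classes was not tested.

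**Figure D3:**
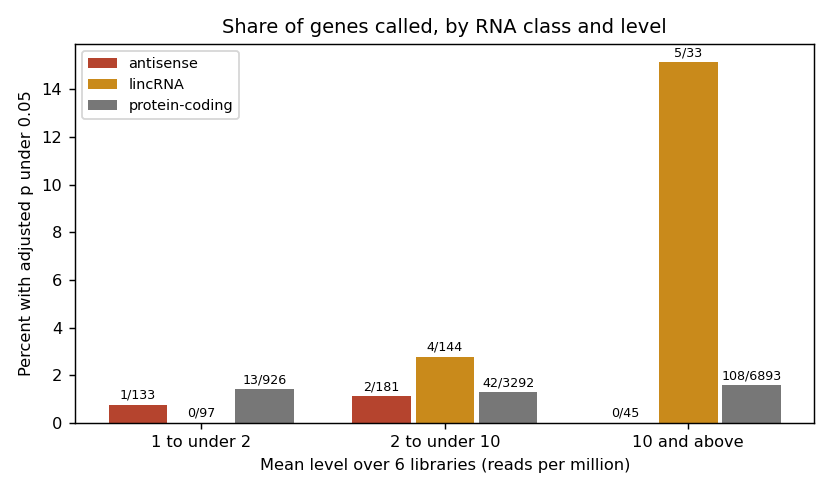
Percent of genes with an adjusted p under 0.05 among antisense RNAs, lincRNAs and protein-coding genes, in 3 ranges of mean level in RPM, with the number called over the number tested above each bar. At 10 or more RPM, 0 of 45 antisense RNAs, 5 of 33 lincRNAs and 108 of 6893 coding genes were called.

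Within the antisense RNAs the counts were small in every class of position, and are set against 1.41% of all genes past the threshold and 11.1% with an unadjusted p under 0.05. Of the 197 with a coding start within 1000 bases, 1 was called, of the 262 with exon overlap on the opposite strand 3, and of the 87 with no exon overlap 0, of which 7 had an unadjusted p under 0.05 in the edgeR test. The 23 RNAs that GENCODE 29 lists under another type held none, and 0 with an unadjusted p under 0.05. The 5 snoRNA hosts with ZFAS1 or SNHG symbols held none, and 1 with an unadjusted p under 0.05.

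A list of 30 antisense RNAs with described roles in other systems had 29 entries in the count table, of which 17 were expressed at the minimum level. SLCO4A1-AS1 fell and none rose, against a background of 0.148% lower and 1.26% higher, and the list was chosen with earlier results known. It had 9 positive and 8 negative log2 fold changes and a median of 0.08, against -0.00 over all genes. TMPO-AS1, head to head with TMPO, a gene for proteins of the nuclear lamina, stood at 3.36, 3.70 and 3.07 CPM in shTCTP libraries and at 4.59, 4.65 and 4.38 CPM in shCtrl libraries. Its groups did not overlap, but the log2 fold change of -0.43 (standard error 0.20, edgeR adjusted p = 0.438) missed the threshold. KCNQ1OT1, the imprinted antisense RNA of KCNQ1, had -0.20 (0.04 without shTCTP 3), NUTM2A-AS1 0.34, ZEB1-AS1 0.48, ZNRD1-AS1 0.45 and DDX11-AS1 -0.59, with edgeR adjusted p-values of 0.491 or more. The log2 fold changes of the other members of the list lay between -0.20 and 0.19, apart from DLEU2 and SLCO4A1-AS1 above.

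Of 15 antisense RNAs of liver genes, 13 were in the count table and only 2 reached the minimum level. CEBPA-AS1, beside the gene of a transcription factor of hepatocytes, averaged 5.32 ± 0.95 CPM in shTCTP and 6.38 ± 1.02 CPM in shCtrl (SD, n = 3 each), with a log2 fold change of -0.26 (edgeR adjusted p = 0.689). IGF2-AS averaged 3.14 ± 0.26 CPM in shTCTP and 2.86 ± 0.20 CPM in shCtrl (SD, n = 3 each), with a log2 fold change of 0.14 (edgeR adjusted p = 0.869). HNF4A-AS1 lay just below the minimum.

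A partner gene was sought for the 126 RNAs whose symbol ends in -AS1 or -AS2. The count table held a partner row for 123 of them, and both genes were tested in 110 pairs. Per gene length, the antisense RNA was above its partner in 52 of the 120 pairs with both FPKM values, and the median ratio of antisense to partner FPKM was 0.677. The lowest ratios were found for abundant partners, 0.000968 for ZNRD1-AS1 and 0.00414 for TPT1-AS1.

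The measured changes of antisense RNA and partner were weakly correlated. The log2 fold changes had the same sign in 59 of 110 pairs (53.6%), with a Pearson r of 0.15 and a Spearman rho of 0.13 across pairs, which share libraries and depth and may share reads. The pairs include ACVR2B-AS1, TIPARP-AS1, TSPEAR-AS1 and ZNF337-AS1, whose direction was fixed by the rule that chose the members. In the 45 tested pairs with starts within 1000 bases, 28 had the same sign and r was 0.25. In the 20 pairs overlapping at their ends, 7 had the same sign and r was -0.25, and in the 44 overlapping elsewhere 23 had the same sign and r was 0.18. These correlations are weak and describe genes in 6 libraries only. The median absolute log2 fold change of the antisense RNAs in these pairs was 0.21. Over the RNAs with an -AS1 or -AS2 symbol the median standard error was 0.23. Errors of that size can lower a correlation, so these values cannot show how closely the true changes are related.

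**Figure D4:**
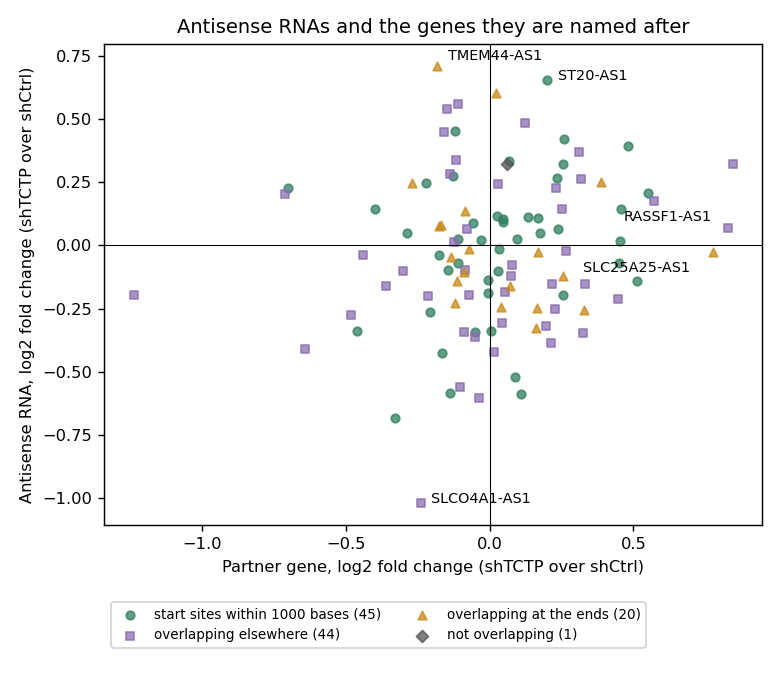
Log2 fold change (shTCTP over shCtrl) of the antisense RNA, on the vertical axis, against that of the gene it is named after, for 110 pairs, by their position to each other. The points scatter around 0 in both directions, SLCO4A1-AS1 lies lowest, and RASSF1 and SLC25A25 lie far to the right with their antisense RNAs near 0.

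Among the partner genes, RASSF1 and SLC25A25 rose and none fell, against a background of 1.26% higher and 0.148% lower over all genes. At an unadjusted p under 0.05 in the edgeR test 8 partner genes were higher and 5 lower, against 6.8% and 4.27% of all genes. DESeq2 called 3 partner genes higher and 0 lower, and over all 14197 genes 254 higher and 60 lower (2.21%). RASSF1, a tumour suppressor that binds Ras proteins, stood at 45.8, 46.2 and 42.0 CPM in shTCTP libraries and at 24.2, 24.4 and 26.8 CPM in shCtrl libraries. The groups lay far apart, with the log2 fold change being 0.83 (standard error 0.13, edgeR adjusted p = 0.00216). RASSF1-AS1, which lies inside the gene and shares 659 of its 790 exon bases with it, stood at 2.40, 2.25 and 1.79 CPM in shTCTP libraries and at 1.71, 2.12 and 2.33 CPM in shCtrl libraries. These groups overlapped, and its log2 fold change was 0.07 (SE 0.25, 95% confidence interval -0.46 to 0.60, edgeR adjusted p = 0.953). The log2 ratio of RASSF1-AS1 to RASSF1 was 0.76 lower in shTCTP than in shCtrl libraries, with an exact two-sided permutation p of 0.1.

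SLC25A25, a carrier of adenine nucleotides in the inner mitochondrial membrane, stood at 44.5, 46.8 and 38.3 CPM in shTCTP libraries and at 23.7, 26.6 and 25.3 CPM in shCtrl libraries. The groups lay apart, with the log2 fold change being 0.78 (standard error 0.14, edgeR adjusted p = 0.00552), and 0.70 (edgeR adjusted p = 0.0570) without shTCTP 2. SLC25A25-AS1, which meets the far end of the gene, stood at 1.30, 1.88 and 1.22 CPM in shTCTP libraries and at 1.97, 1.28 and 1.22 CPM in shCtrl libraries. Its groups overlapped, with the log2 fold change being -0.03 (standard error 0.30, 95% confidence interval -0.66 to 0.61, edgeR adjusted p = 0.986). The log2 ratio of SLC25A25-AS1 to SLC25A25 was 0.79 lower in shTCTP than in shCtrl libraries (exact two-sided permutation p = 0.1). Over the 3 pairs so tested, SLCO4A1-AS1 included, the Benjamini-Hochberg value was 0.1. All 3 were tested because a gene of the pair had passed the threshold in the same libraries, so their ratios are not independent of those calls.

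The same was done for coding genes with a start within 1000 bases of an antisense RNA, whatever its symbol. In 194 such pairs with both genes tested, the log2 fold changes had the same sign in 106, with a Pearson r of 0.19. Both values include antisense RNAs whose direction was fixed by the rule that chose the members, among them those beside LIF and EPHA2. Of the coding genes 3 (1.55%) rose, against 1.26% of all genes, and none fell, against 0.148%. At an unadjusted p under 0.05 in the edgeR test 15 were higher and 3 lower, against 6.8% and 4.27% of all genes. Those past the threshold were LIF, EPHA2 and ZC3H12A, and the pairs were chosen after their values were seen.

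LIF, a cytokine of the interleukin-6 family, stood at 46.2, 51.1 and 51.3 CPM in shTCTP libraries and at 19.2, 22.4 and 20.5 CPM in shCtrl libraries (log2 fold change 1.26, edgeR adjusted p = 5.4e-05). RP1-102K2.8, which starts 646 bases away on the other strand, had 58, 57 and 33 reads in shTCTP libraries and 38, 24 and 28 reads in shCtrl libraries. Its shTCTP 1 and 2 were the highest and shTCTP 3 lay within the shCtrl range. RP1-102K2.8 reached 1 RPM through the shTCTP libraries alone, so its direction was fixed by the rule that chose the members. Its log2 fold change of 0.70 (standard error 0.31, edgeR adjusted p = 0.417) missed the threshold, and was 0.93 without shTCTP 3 (edgeR adjusted p = 0.0718). The log2 ratio to LIF had a difference of -0.59 between shTCTP and shCtrl (exact two-sided permutation p = 0.2), and of -0.30 without shTCTP 3.

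EPHA2, an ephrin receptor kinase, stood at 198, 233 and 237 CPM in shTCTP libraries and at 105, 110 and 110 CPM in shCtrl libraries (log2 fold change 1.04, edgeR adjusted p = 0.000213). RP11-276H7.2, which starts 876 bases away, had 35, 31 and 40 reads in shTCTP libraries and 22, 28 and 19 reads in shCtrl libraries. Its groups did not overlap, yet the log2 fold change of 0.59 (standard error 0.32, edgeR adjusted p = 0.518) missed the threshold. This RNA reached the limit of 1 RPM through the shTCTP libraries alone (1.25 RPM in shTCTP and 0.763 RPM in shCtrl on average). Its direction was therefore fixed by the rule that chose the members. The log2 ratio to EPHA2 was 0.44 lower in shTCTP than in shCtrl libraries, with an exact two-sided permutation p of 0.1.

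ZC3H12A, an endoribonuclease that degrades messages of inflammation, stood at 14.6, 17.9 and 15.2 CPM in shTCTP libraries and at 9.48, 9.64 and 9.65 CPM in shCtrl libraries (log2 fold change 0.73, edgeR adjusted p = 0.0263). The call was lost without shTCTP 2 (edgeR adjusted p = 0.147) and without shCtrl 1, 2 or 3 (0.105, 0.153 and 0.119). LINC01137, which starts 141 bases away and whose first bases are marked in the ZC3H12A window, had 52, 67 and 15 reads in shTCTP libraries and 38, 42 and 50 reads in shCtrl libraries. Library shTCTP 3 was far below the other 5 and shTCTP 2 was the highest, so its log2 fold change of 0.02 (SE 0.39) rests on libraries that went opposite ways, and was 0.44 without shTCTP 3. The log2 ratio to ZC3H12A had a difference of -0.94 between shTCTP and shCtrl (exact two-sided permutation p = 0.1), and of -0.32 without shTCTP 3. Over the 5 pairs tested after seeing their values, which also hold RP11-290D2.6 and AP000692.10, every Benjamini-Hochberg value was 0.2.

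**Figure D5:**
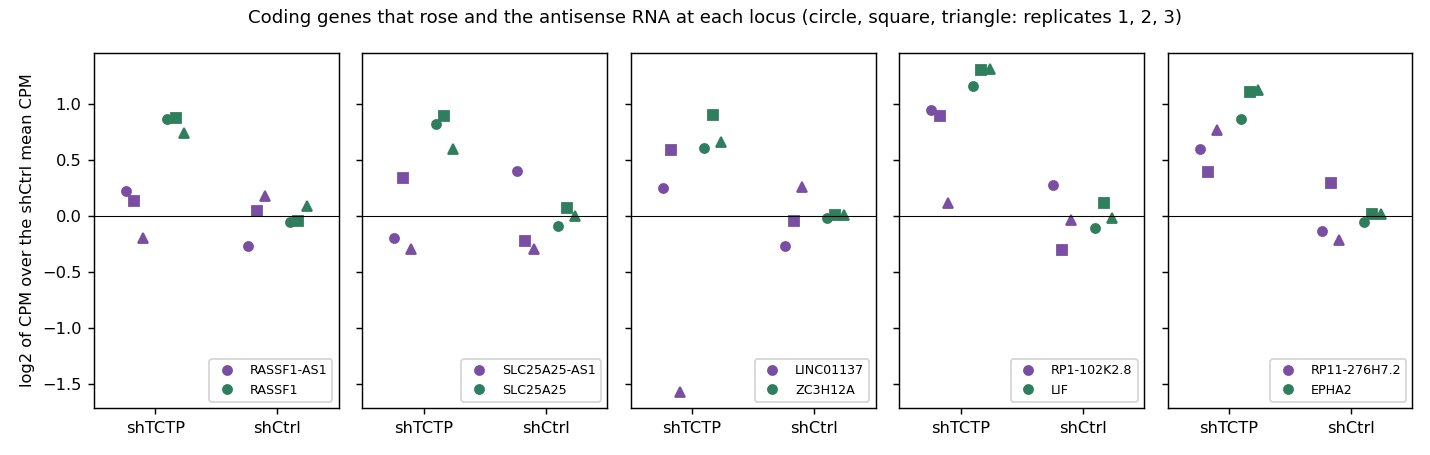
Log2 of CPM over the shCtrl mean in each library, for 5 coding genes that rose (green) and the antisense RNA of the same locus (purple), with shTCTP left of shCtrl. The coding genes lie above every shCtrl library in all 3 shTCTP libraries, while the antisense RNAs of RASSF1, SLC25A25, ZC3H12A and LIF overlap between the groups and that of EPHA2 does not. Those of EPHA2 and LIF reached 1 RPM through the shTCTP libraries alone, which fixed their direction.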

How the data were processed

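RNA-seq was analysed for 3 shTCTP and 3 shCtrl libraries. The authors deposited a table of counts of reads for each gene and a table of FPKM, a unit relative to gene length and library size. The submitters' processing notes name bcl2fastq, TopHat2, edgeR and GRCh38. For annotation, counting tool and strand setting, the sources used here give nothing. Depth was 25427614 to 30486409 assigned reads per library. All columns of both tables were matched to samples by name.

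The counts of all genes that passed filterByExpr were scaled by TMM and compared between groups with edgeR 4.0.16 in R 4.3.3 (quasi-likelihood test, robust, no covariate). The Benjamini-Hochberg adjustment ran over all 14197 genes tested, with a threshold of 0.05. Each standard error is the log2 fold change divided by the root of its F statistic. Log2 ratios within pairs used a prior of 0.5 reads and an exact two-sided permutation test. Positions came from GENCODE 29 on GRCh38, in which 98.0% of identifiers were found. Promoter windows came from RefSeq. The procedure was tested on simulated data. Figures were drawn with matplotlib 3.10.9.

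The text names every antisense RNA past the threshold, the 6 largest rises and falls with an unadjusted p under 0.05, the 6 most abundant, their partners, pairs with a called partner, TPT1 and members of 2 lists. The members and the lists were chosen with earlier results of these data known. Alternatives were RLE scaling, library totals, other filters on low counts, the replicate block, DESeq2 1.42.0, limma 3.58.1 on log2 FPKM with pseudocounts of 1 and 0.1, each library left out in turn, other minimum levels (that for each group was added after seeing the data) and RNAs without exon overlap.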

Additional observations from a re-analysis of the deposited data

How the results depend on the processing

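AP000692.10 and RP11-874J12.4 stayed past the threshold and higher with RLE scaling, library totals, other count filters, DESeq2 and both FPKM tests, and SLCO4A1-AS1 stayed lower with RLE scaling, both other filters and DESeq2. Scaling by library totals and limma on log2(FPKM + 1) and on log2(FPKM + 0.1) left 0 antisense RNAs lower in place of 1, with SLCO4A1-AS1 at -0.91, -0.55 and -0.85 (adjusted p = 0.122 by edgeR, 0.0746 and 0.0642 by limma). Over all genes these settings left 4, 6 and 11 lower in place of 21. With no filter on low counts 4 antisense RNAs were lower and 3 higher, while over all 26389 genes 71 were lower and 246 higher (1.20% called). With the minimum level at 2, there was 1 higher. Among the 339 RNAs with at least 1 RPM in the mean of each group, an alternative chosen after seeing the data, 1 was higher and 1 lower. Among RNAs with no exon overlap 0 were higher and 0 lower. The causes of these shifts were not tested, apart from the smaller membership in the last 3.

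Replicate numbers did not pair the libraries (r of deviations -0.22, 0.01 and -0.17 for same-numbered libraries). With the replicate block 130 genes were called in place of 200, 1 antisense RNA was higher (AP000692.10) and 1 lower (RP11-290D2.6, edgeR adjusted p = 0.000214), RP11-874J12.4 and SLCO4A1-AS1 were not called (edgeR adjusted p = 0.0879 and 0.102), and LINC01137 turned to -0.11.

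Leaving out single libraries gave 0 to 5 antisense RNAs higher, 0 to 2 lower, 1 to 3 partner genes higher and 0 to 1 lower. The share of all genes called ran from 0.546% without shCtrl 2 to 2.375% without shTCTP 3. The log2 fold changes near 0 changed sign in such comparisons, with ranges of -0.036 to 0.17 for RP4-614O4.11, -0.20 to 0.039 for SNHG7, -0.18 to 0.047 for PINK1-AS, -0.052 to 0.19 for RASSF1-AS1, -0.26 to 0.23 for SLC25A25-AS1, -0.41 to 0.042 for KCNQ1OT1, -0.16 to 0.12 for FOXD2-AS1, -0.059 to 0.20 for SBF2-AS1, -0.24 to 0.054 for MAFG-AS1, -0.20 to 0.019 for FGD5-AS1, -0.39 to 0.44 for LINC01137 and -0.12 to 0.57 for MORC3.

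With library totals, log2(FPKM + 1) and log2(FPKM + 0.1), in that order, the sign also turned for SNHG7 (0.041, 0.032, 0.033), PINK1-AS (0.0085, 0.0058, 0.0062), RP11-400F19.6 (0.015, 0.015, 0.016), SLC25A25-AS1 (0.065, 0.013, 0.059), FOXD2-AS1 (0.068, 0.035, 0.061) and FGD5-AS1 (0.021, 0.026, 0.032). LINC01137 was at -0.0022 and -0.084 in the FPKM tests. None of these values passed the threshold in any setting. Partner genes were not counted in the FPKM tests.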
